A study of Homo sapiens with 2 samples.

Results

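ABCA1, which encodes the membrane transporter that moves cholesterol and phospholipid onto lipid-poor apolipoproteins, was set beside 6 other genes that the liver X receptors (LXRs) are known to regulate, namely ABCG1, MYLIP, APOE, LPCAT3, PLTP and SMPDL3A. ABCA1 was chosen by its measured difference in signal between the arrays of the series, and the other members as known LXR targets, to see whether they follow it. All 7 were measured, each by a single probe set, of 18404 genes with a probe set of their own. The samples were 2 Affymetrix Human Gene 1.0 ST arrays of the wild-type HL-60 line, a human promyelocytic leukaemia cell line, grown in serum-supplemented DMEM with no treatment named in the labels. The series concerns the relation of DNMT1, RNA and DNA methylation to gene expression, but these arrays form 1 group of 2 replicates, so no genotype or treatment is compared. Whether they came from separate cultures is not stated in the labels, and the spread between them may be technical.

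LXRs are nuclear receptors that bind oxysterols and, as partners of the retinoid X receptors (RXRs), switch on genes that export and redistribute cholesterol when a cell holds too much of it. They bind repeated half-site sequences spaced by a short gap, an arrangement called DR4, and their target genes are best studied in macrophages and liver. When sterol is scarce, the SREBP2 factor works in the opposite direction and raises genes of cholesterol synthesis and uptake.

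The promoter of ABCA1 is shown because it carries a match to the LXR motif, and those of MYLIP and LPCAT3 because they belong to the other members with the clearest signal. Sequences are from RefSeq on GRCh38.p14, from 250 bases before to 50 bases after the annotated start, 5′ to 3′ along the gene. ABCA1 lies at chr9:104928106-104928405 on the minus strand, MYLIP at chr6:16128836-16129135 on the plus strand and LPCAT3 at chr12:7018427-7018726 on the minus strand. Capitals mark matches to 4 motifs searched on both strands: the DR4 motif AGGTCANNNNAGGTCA with at most 1 mismatch in each copy of AGGTCA, the E-box with the letters CACGTG, the TATA box, searched as TATAAA, and the CCAAT box, searched by the letters of its name.
ABCA1: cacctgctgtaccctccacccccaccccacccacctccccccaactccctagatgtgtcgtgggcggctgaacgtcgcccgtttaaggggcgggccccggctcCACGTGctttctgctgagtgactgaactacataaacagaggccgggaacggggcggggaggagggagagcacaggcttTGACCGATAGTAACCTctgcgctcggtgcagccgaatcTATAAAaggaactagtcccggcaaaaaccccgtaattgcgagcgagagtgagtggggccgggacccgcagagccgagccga
MYLIP: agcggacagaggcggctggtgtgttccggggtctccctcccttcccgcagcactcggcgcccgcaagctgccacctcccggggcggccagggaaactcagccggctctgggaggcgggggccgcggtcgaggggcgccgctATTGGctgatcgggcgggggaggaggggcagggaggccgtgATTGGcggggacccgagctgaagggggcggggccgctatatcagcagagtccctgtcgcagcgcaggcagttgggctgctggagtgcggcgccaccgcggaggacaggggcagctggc
LPCAT3: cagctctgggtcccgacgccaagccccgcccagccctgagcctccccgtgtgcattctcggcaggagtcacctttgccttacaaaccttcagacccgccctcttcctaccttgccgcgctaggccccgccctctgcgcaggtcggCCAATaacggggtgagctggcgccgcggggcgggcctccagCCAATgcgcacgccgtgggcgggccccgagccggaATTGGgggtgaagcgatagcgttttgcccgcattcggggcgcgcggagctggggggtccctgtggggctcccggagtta
The ABCA1 window held, in order, an E-box, a DR4 match and a TATA box, which did not overlap. Its DR4 match lay on the other strand, 69 to 54 bases before the start, and read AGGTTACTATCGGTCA there, with 1 mismatch in each copy. The windows of MYLIP and LPCAT3 held 2 and 3 CCAAT boxes and none of the other 3 motifs. Windows were found for 5 of the 7 members, 8 windows in all since APOE had 3 and PLTP 2, and the ABCA1 window was the 1 among them with a DR4 match. Over all 35116 windows in the table, 1.38% held a DR4 match by this rule, 11.5% a TATA box, 34.6% a CCAAT box and 7.26% an E-box. The ABCA1 window held 23 CpG dinucleotides, that of MYLIP 29 and that of LPCAT3 30, against a median of 14 over all windows. The 3 APOE windows held 8, 12 and 11 and the PLTP windows 19 and 17. A match describes the letters of these windows and is not evidence of binding, and DNA methylation was not analysed here.

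Signals are given as deposited by the authors, on a log2 scale after RMA, so a difference of 1 is a 2-fold difference. A gene was called above background where it exceeded the 95th percentile of 340 olfactory receptor genes, sensory genes with no known part in myeloid cells (2.98 on replicate 1 and 2.87 on replicate 2). A stricter threshold, the 95th percentile of 116 keratin-associated protein, bitter taste receptor and beta-defensin genes, lay at 5.40 and 5.22. Over all genes the difference of replicate 2 minus replicate 1 had a median of -0.04 and an SD of 0.39 (0.28 for a single array). Each probe set responds with its own strength, so signals of different genes are not compared as transcript amounts. With 1 array on each side no test could be made. The number of arrays limits the precision.

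ABCA1 differed between the arrays, and of the other members 3 were measured above background on both arrays without a difference of that size and 3 were at background. ABCA1 read 2.59 on replicate 1 and 5.01 on replicate 2, below the olfactory threshold on replicate 1 and above it on replicate 2. Its signal was thus low on 1 array and higher by 2.42 on the other, a 5.35-fold difference that served to choose it and is given as a description only. Counted from the olfactory threshold of replicate 1 instead of the signal under it, replicate 2 was higher by 2.02, or 4.07-fold. That value depends on the threshold used. On neither array did ABCA1 reach the stricter threshold. Its mean signal was 3.80 ± 1.71 (SD, n = 2). The SD exceeded the per-array SD over all genes, so the mean stands for neither array.

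Because ABCA1 was measured by 1 probe set on 1 array per side, the difference has no second measurement in these data.

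**Figure D1:**
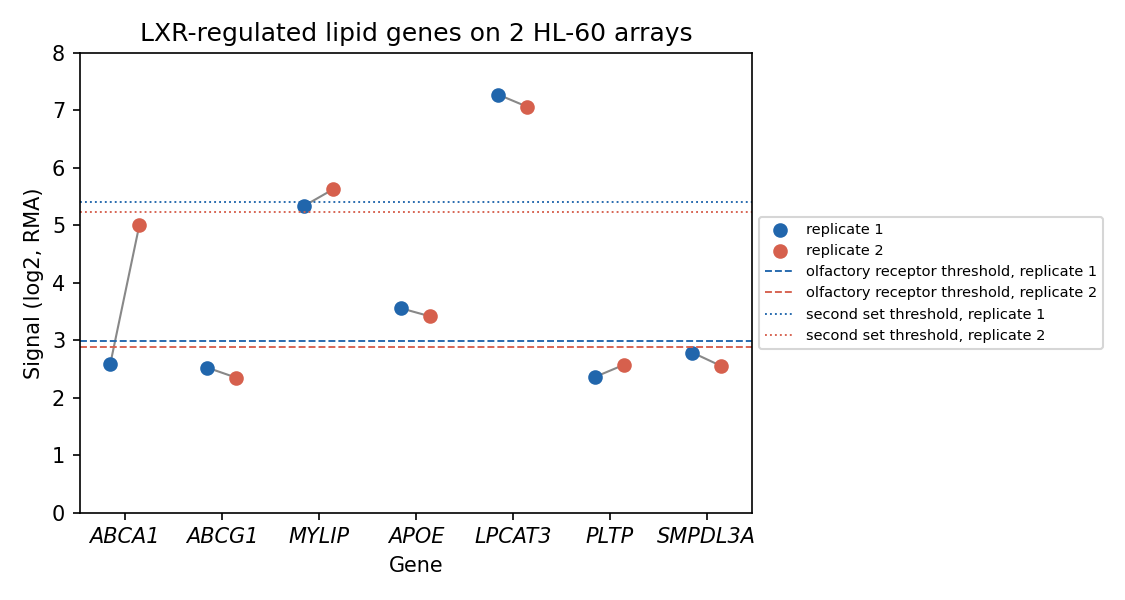
Signal (log2, RMA) of ABCA1 and 6 other LXR-regulated genes on replicate 1 (blue) and replicate 2 (red), joined by a line for each gene. Dashed lines are the olfactory receptor thresholds (2.98 and 2.87) and dotted lines the stricter thresholds (5.40 and 5.22) of each array. ABCA1 crosses the dashed lines between the arrays, whereas each of the other 6 genes stays on the same side of them.

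ABCG1, the transporter that passes cholesterol on to mature high-density lipoprotein and is commonly induced together with ABCA1, read 2.52 on replicate 1 and 2.35 on replicate 2 (mean 2.44 ± 0.12, SD, n = 2). Both values lay below the olfactory threshold, and the gene was lower by 0.18 on the array where ABCA1 was high (difference -0.18). Of the 5243 genes within 0.5 of its mean signal, 58.9% differed at least as much. ABCG1 was therefore at background level on both arrays, and a difference beneath the threshold could not have been seen.

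MYLIP encodes IDOL, a ubiquitin ligase that sends the LDL receptor for degradation. It read 5.34 on replicate 1 and 5.63 on replicate 2 (mean 5.49 ± 0.21, SD, n = 2), above the olfactory threshold on both arrays and above the stricter one on replicate 2 only. Its difference of 0.29 had the same direction as that of ABCA1 but was a 1.22-fold change. Among the 2019 genes of like signal, 49.7% differed at least as much.

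APOE, whose product carries lipid in plasma and is secreted by macrophages, read 3.56 and 3.41 on replicates 1 and 2 (mean 3.49 ± 0.10, SD, n = 2). Both values passed the olfactory threshold, by 0.57 and 0.54, and neither passed the stricter one. The difference was -0.14, and 69.6% of 3780 genes of like signal differed at least as much. PLTP, which encodes the plasma phospholipid transfer protein, read 2.36 and 2.57 (mean 2.47 ± 0.15, SD, n = 2), below the olfactory threshold on both arrays. Its difference of 0.21 was matched or exceeded by 52.6% of 5178 genes of like signal.

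LPCAT3, an acyltransferase that places polyunsaturated chains into membrane phospholipids, was the member farthest above background. It read 7.28 on replicate 1 and 7.06 on replicate 2 (mean 7.17 ± 0.15, SD, n = 2), above the stricter threshold on both arrays. The difference was -0.21, and 57.4% of 805 genes of like signal differed at least as much. SMPDL3A, a secreted phosphodiesterase of the acid sphingomyelinase family, read 2.79 and 2.55 (mean 2.67 ± 0.17, SD, n = 2), below the olfactory threshold on both arrays. Its difference was -0.24, with 48.1% of 5032 genes of like signal differing at least as much.

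Of the 7 members, 3 were above the olfactory threshold on both arrays (MYLIP, APOE and LPCAT3), against 55.8% of all genes. ABCA1 was the 1 member above it on replicate 2 only, a pattern seen in 4.77% of all genes, and ABCG1, PLTP and SMPDL3A were above it on neither array, as were 36.6% of all genes. LPCAT3 alone passed the stricter threshold on both arrays, which 17.1% of all genes did. ABCA1 was also the 1 member higher on replicate 2 by more than 1, which its choice by this difference fixed, so nothing is read from that count beside the 1.08% of all genes. No member was lower by more than 1, against 0.88%. The 6 members other than ABCA1 spread from -0.24 to 0.29, with 2 higher and 4 lower on replicate 2. Their median difference was -0.16, beside -0.04 over all genes, of which 42.1% were higher and 52.6% lower on replicate 2. None of the 6 differed by more than 0.5 in either direction, whereas 7.95% of all genes were higher and 9.58% lower by that much. Each of the 6 members lay on the same side of the olfactory threshold on both arrays, so none crossed it as ABCA1 did. In the 3 at background a difference beneath the threshold could not have been seen. MYLIP, APOE and LPCAT3 were the members with a level above it on both arrays.

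**Figure D2:**
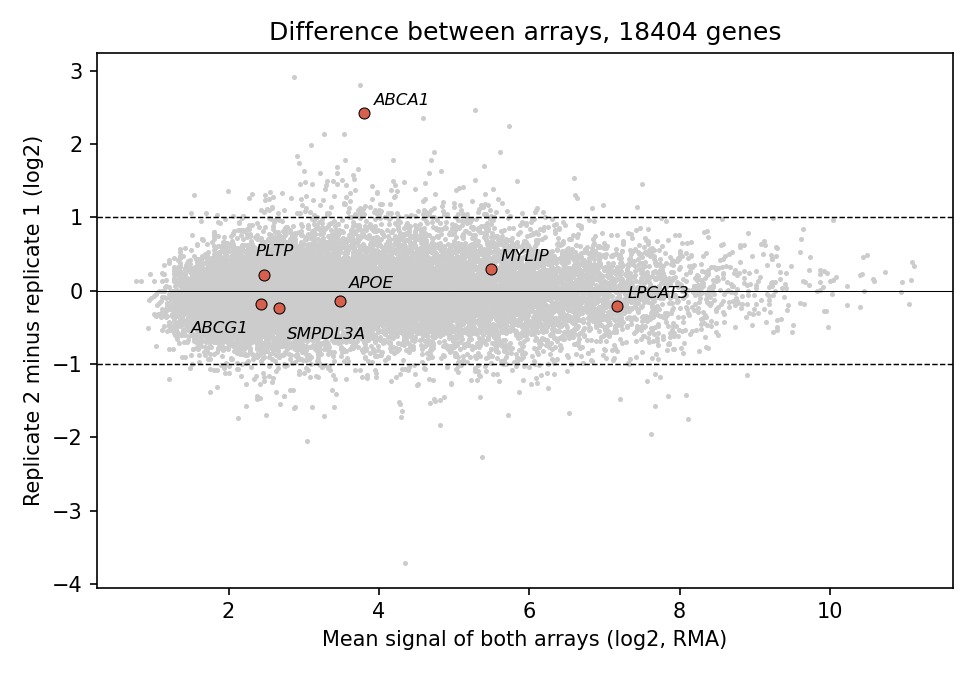
Difference between the arrays (replicate 2 minus replicate 1, log2) against the mean signal of both (log2, RMA) for 18404 genes (grey points), with the 7 LXR-regulated genes in red. Dashed lines mark differences of 1 and -1. ABCA1 stands at 2.42, while the other 6 genes lie between -0.24 and 0.29 in the body of the cloud.

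Of the LXR and RXR receptor genes 4 of 5 were measured, and NR1H2, which encodes LXR beta, was not analysed here. NR1H3, which encodes LXR alpha and is itself an LXR target in human cells, read 2.72 on replicate 1 and 3.19 on replicate 2 (mean 2.96 ± 0.33, SD, n = 2). Like ABCA1 it was above the olfactory threshold on replicate 2 only, but its difference was 0.46. RXRA read 4.41 and 4.52 and RXRG 2.10 on both arrays, the latter not above background. RXRB averaged 5.21 and 5.63 over its 3 probe sets, which disagreed: 2 were higher on replicate 2, by 0.83 and 0.63, and the other was lower (difference -0.20). The 4 receptors measured had a median difference of 0.26, or 0.05 when RXRB was taken from its highest probe set. None of these 4 differed by more than 0.5, whereas 7.95% of all genes were higher and 9.58% lower by that much.

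Of 11 listed cofactors through which LXRs repress or activate their targets, 8 were measured. All 8 were above the olfactory threshold on both arrays, against 55.8% of all genes. By the mean of both arrays, the basis of every highest and lowest gene named here, the histone acetyltransferase gene EP300 was the highest (6.66 and 6.76) and the coactivator NCOA1 the lowest (4.73 and 5.18). Of the 8 cofactors 6 were higher and 2 lower on replicate 2, against 42.1% and 52.6% of all genes. Their median difference was 0.29, beside -0.04 over all genes. No cofactor differed by more than 1, a count near the share over all genes (1.08% higher and 0.88% lower), so it says little.

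Of 11 other LXR target genes measured, 3 were above the olfactory threshold on both arrays and 7 on neither. Over all genes these shares were 55.8% and 36.6%. The remaining gene, MLXIPL (2.87 on replicate 1 and 3.09 on replicate 2), was above the threshold on replicate 2 only, as were 4.77% of all genes. None of the 11 differed by more than 1, a count near the share over all genes (1.08% higher and 0.88% lower), so it says little about the list. SCD, the stearoyl-CoA desaturase gene, was the highest of them by mean signal (7.63 on replicate 1 and 7.91 on replicate 2, a difference of 0.28). SREBF1, which drives fatty acid synthesis and is induced by LXR, read 3.65 and 3.43, and the fatty acid synthase gene FASN read 4.92 and 4.19, a difference of -0.74. The lowest by mean signal was CETP, the cholesteryl ester transfer protein gene (1.59 and 1.89), which like LPL, ABCG5, ABCG8, APOC1, CD5L and MERTK was above the threshold on neither array. The median difference of these 11 genes was 0.09, with 6 higher and 5 lower, and it moved to 0.18 after quantile normalization or removal of a loess trend.

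Of 9 measured genes of the opposing SREBP2 programme, sterol synthesis and its regulators, 6 were lower and 3 higher on the array where ABCA1 was high, with a median difference of -0.51. All 9 were above the olfactory threshold on both arrays, against 55.8% of all genes. HMGCS1, an early enzyme of the pathway, was the highest of them and read 8.47 on replicate 1 and 7.62 on replicate 2. DHCR7, which makes the last step to cholesterol, read 7.06 and 6.06, the 1 gene of the list lower by more than 1, and it no longer was after the arrays were quantile-normalized to each other (-0.97). The lowest was SC5D (3.35 and 3.38). SREBF2, which encodes SREBP2, went the other way with 5.05 and 5.66. Of the 9 genes 5 were lower by more than 0.5, against 9.58% of all genes. By any amount, 4 of the 7 promyelocyte markers described below and 5 of the 8 reference genes were lower on that array, against 52.6% of all genes. By more than 0.5, 4 of those markers and 2 of the reference genes were lower. The part of such broader differences in the result was not tested.

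Enzymes that make or clear oxysterols, the ligands of LXR, were mostly at background. Of 9 measured, 3 were above the olfactory threshold on both arrays, against 55.8% of all genes, and 0 differed by more than 1. EBP, a sterol isomerase, was the highest (7.31 and 6.74) and the hydroxylase gene CYP39A1 the lowest (1.59 and 1.42). Of 14 genes of cholesterol uptake and trafficking, 12 were above the olfactory threshold on both arrays and 0 differed by more than 1. In both lists the count past 1 is near the share over all genes (1.08% higher and 0.88% lower), so it says little about them. The lipoprotein receptor gene VLDLR, whose product is also a target of IDOL, was the highest by mean signal and read 7.01 on replicate 1 and 7.83 on replicate 2. The scavenger receptor gene CD36 was the lowest (1.20 and 1.35). The median differences of these lists were 0.00 and -0.08.

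Most transporters of the ABCA1 family and its ABCG relatives were at background. Of 13 other ABCA and ABCG genes measured, 3 were above the olfactory threshold on both arrays, 9 on neither and 1 on replicate 2 only. Over all genes these shares were 55.8%, 36.6% and 4.77%. By mean signal the highest was ABCA2 (4.13 and 3.99) and the lowest ABCA10 (1.65 and 1.79). Their differences ran from -0.33 to 0.45, with a median of -0.13 that moved to -0.01 after quantile normalization or removal of a loess trend. Receptors of retinoic acid, fatty acids and thyroid hormone belong to families known to act on ABCA1 directly or through LXR. Of 7 measured, 4 were above the threshold on both arrays, beside 55.8% of all genes. None of the 7 differed by more than 1, which is near the share over all genes (1.08% higher and 0.88% lower) and says little. By mean signal THRA was the highest (5.08 and 4.75) and THRB the lowest (2.26 and 2.04).

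**Figure D3:**
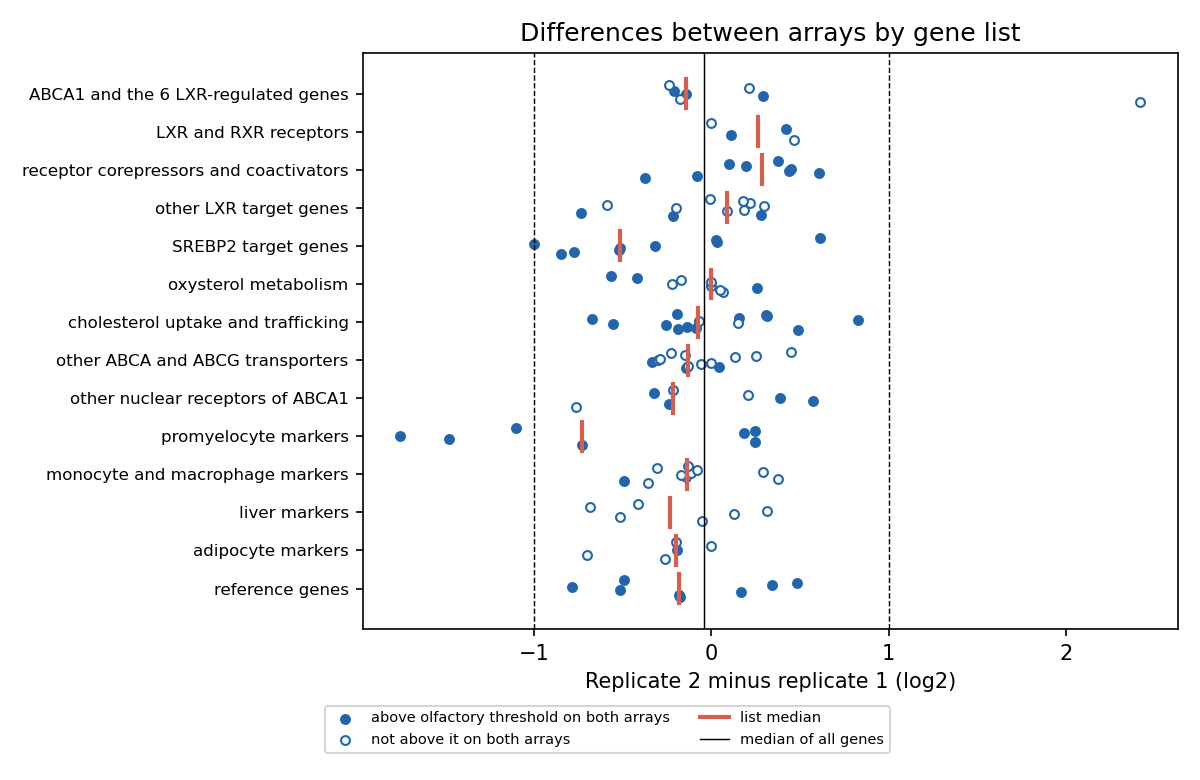
Difference between the arrays (replicate 2 minus replicate 1, log2) of each measured gene in 14 lists. Filled points are above the olfactory receptor threshold on both arrays, open points are not, red bars are list medians, the solid line is the median of all genes (-0.04) and dashed lines mark 1 and -1. ABCA1 is the open point at 2.42, and the promyelocyte markers (median -0.73) and SREBP2 target genes (median -0.51) lie farthest to the left.

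Markers of the line and of other cells were set beside these values. All 7 promyelocyte markers measured were above the olfactory threshold on both arrays, against 55.8% of all genes. These 7 had a median difference of -0.73, with 3 higher and 4 lower on replicate 2. Of them 3 were lower by more than 1, against 0.88% of all genes: CTSG (8.99 and 7.24), PRTN3 (7.95 and 6.47) and MS4A3 (5.98 and 4.88). MYB was the highest (9.29 and 9.53) and AZU1 the lowest (3.01 and 3.19). Of 10 monocyte and macrophage markers, the cells in which LXR targets are typically induced, 1 was above the threshold, CD68 (4.60 and 4.11), and the lowest was MSR1 (1.34 and 1.20). Their signals ranged from 1.34 to 4.60 on replicate 1 and from 1.20 to 4.11 on replicate 2, with 2 higher and 8 lower on replicate 2 and a median difference of -0.14, or -0.04 after quantile normalization or removal of a loess trend. The 9 others were at background on both arrays, so none crossed the threshold as ABCA1 did. A difference beneath the threshold could not have been seen in them. Of 6 liver markers 0 were above the threshold on both arrays, with SERPINA1 highest (3.46 and 2.78) and FGB lowest (1.73 and 1.32). Of 5 adipocyte markers 1 was above it, PLIN1 (3.22 and 3.03), and FABP4, at 1.73 on both arrays, was the lowest. The 8 reference genes, from HPRT1 (5.76 and 5.25) to GAPDH (11.14 and 10.95), had a median difference of -0.18. The part of the promyelocyte markers in the ABCA1 difference was not tested.

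The 5 genes whose pair of signals lay nearest to that of ABCA1 were found from the values that chose it, so they are a description. Likeness was the Euclidean distance between pairs of log2 signals over the 2 arrays, among the 11672 genes that passed the olfactory threshold on either array. The nearest was ZNF814 (2.34 on replicate 1 and 5.15 on replicate 2, distance 0.28), a zinc finger gene. It was followed by the phosphatase gene DUSP22 (2.47 and 4.61, distance 0.42), the zinc finger gene ZNF805 (2.89 and 4.56, distance 0.54), the annexin gene ANXA3 (2.66 and 4.44, distance 0.57) and the bitter taste receptor gene TAS2R4 (2.87 and 4.45, distance 0.62). Each of these 5 was below the olfactory threshold on replicate 1 and above it on replicate 2, as the choice by distance largely fixes. TAS2R4 belongs to the second set of genes, which was taken as background. None of the 5 belongs to the lists of LXR or sterol genes. All 13 lists besides the members hold 111 measured genes of 18404, so this absence says little.

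The genes beside ABCA1 on chromosome 9, by their order in the RefSeq gene table, differed less than it did. Its choice by a large difference largely fixes this. On one side NIPSNAP3B, the nearest measured gene, read 2.08 and 2.02, NIPSNAP3A read 3.78 and 4.38, and the olfactory receptor gene OR13D1 2.55 and 1.76. OR13D1 belongs to the 340 olfactory receptor genes that set the threshold. On the other side SLC44A1, a choline transporter gene, read 5.60 on replicate 1 and 6.24 on replicate 2, FSD1L read 2.38 and 2.53, and TAL2 2.45 on both arrays. NIPSNAP3A and SLC44A1, the 2 neighbours above the olfactory threshold, were higher on replicate 2 by 0.60 and 0.64. Over all genes 7.95% were higher by more than 0.5. The neighbours were added after their values were seen, and a link to the ABCA1 difference was not tested. The other four were at background on both arrays, with differences from -0.79 to 0.15.

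**Figure D4:**
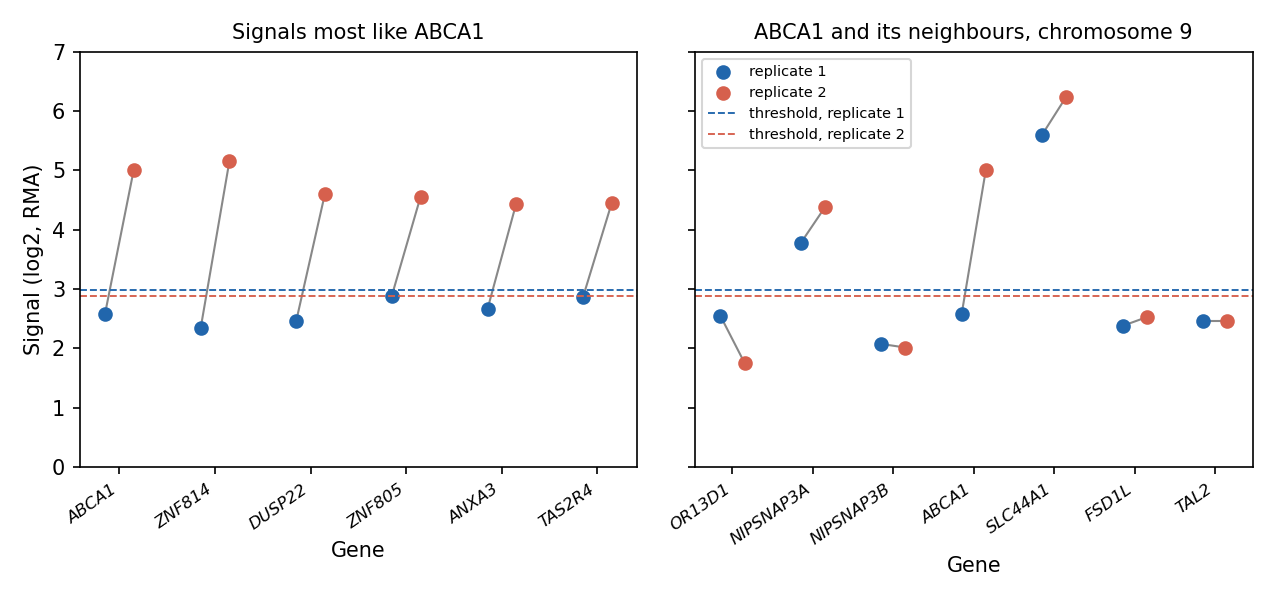
Signal (log2, RMA) on replicate 1 (blue) and replicate 2 (red) of ABCA1 with the 5 genes of most similar signals (left) and with the 3 nearest measured genes on either side of it on chromosome 9, in order along the chromosome (right). Dashed lines are the olfactory receptor thresholds of each array (2.98 and 2.87). Each gene on the left crosses the thresholds, and on the right ABCA1 is the 1 gene that does.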

How the data were processed

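Total RNA of HL-60 cells was amplified, biotin-labelled and hybridised to 1 array per sample, per the labels' protocols. The authors deposited a log2 value for each probe set, computed with RMA per the submitters' processing notes. The log base is not given in the sources used here and was taken as 2, RMA's own. Which arrays were normalized together is also not given. Because RMA equalises the arrays' distributions, the values carry no information on total RNA per cell.

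Of 32321 probe sets, 19158 had 1 gene symbol, 1388 several and 11775 were not listed in the platform annotation. Only the first kind was named, and 19128 of their Entrez IDs were found in the RefSeq gene table (GRCh38.p14). Probe sets of a gene were averaged, giving 18404 genes. List members with no probe set of their own in this annotation (17 of 128) are not analysed here.

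The members and lists were chosen with earlier results of these data known. Genes named are the members, the receptors and the highest and lowest gene of each other list. Genes past a difference of 1 and the 5 genes nearest to ABCA1 are also named. SREBF1, FASN, SREBF2, MLXIPL, the other LXR targets at background, and the chromosome neighbours were added after their values were seen. Computations were tested on simulated data and used Python 3.11.15, numpy 2.4.6, pandas 2.3.3 and statsmodels 0.14.6. Alternatives were the highest probe set per gene, quantile normalization, a loess trend (span 0.3), other thresholds and each array alone.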

Additional observations from a re-analysis of the deposited data

Results flagged for a closer look

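Probe sets with several gene symbols were left out of the comparisons above, and some carried signal. None of them listed ABCA1 or another of the 7 members. Of 6 that listed a gene of the pathway or marker lists among their symbols, 3 exceeded the olfactory threshold on both arrays. The highest signal among the 6, taken for each array separately, was 5.02 on replicate 1 and 4.93 on replicate 2. The largest difference among the 6 was 1.75, higher on replicate 2, so the counts of list genes past a difference of 1 hold for probe sets with 1 symbol only. These probe sets are counted here because they hold signal that no comparison used, and no gene is named from them.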

How the results depend on the processing

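No paired analysis was possible because both arrays belong to 1 group. The main values were recomputed 25 times in all. In 23 cases the count changed by at most 1.5 times, or the median by less than the SD of 0.28 for a single array. The 2 others came from the threshold of the second background set, which lies higher: 1 in place of 3 members and 31 in place of 61 genes of the other lists were above background on both arrays. With the olfactory threshold raised to the 99th percentile, 2 members were, APOE being lost. Without replicate 1 the count was 4 members, because ABCA1 joined, and without replicate 2 it was 3. The other lists gave 64 genes on either array alone. The ABCA1 difference ranged from 2.42 to 2.45, and the median difference of the other 6 members from -0.16 to -0.11. Each member has 1 probe set, so taking the highest probe set could not change these values. The other alternatives rescale or subset the same 2 arrays, so this narrow range is no second measurement of the ABCA1 difference. After quantile normalization the median over all genes was 0.00 instead of -0.04. The median difference of the receptors fell from 0.26 to 0.05 with the highest probe set per gene, since the probe sets of RXRB disagreed. Of 125 recomputed values of single genes and lists, 17 moved, 10 of them with the second background set, and 0 reversed. Only a difference or median beyond 1 that changed sign was called reversed. Among these values the ABCA1 difference alone was beyond 1, so the count of 0 says little. A median could also fall from 0.26 to 0.05, as for the receptors, without being counted as moved. Alternatives that start from scanner files were not run. With 3 of 7 members under the olfactory threshold on both arrays, low signal over background limits what could be seen of them.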
